A study of Drosophila melanogaster with 27 samples.

Results

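Broad domains of histone H4 lysine 20 monomethylation (H4K20me1) were examined in wild-type wing imaginal discs of Drosophila melanogaster, the larval epithelia that form the adult wing and notum. A domain was any peak at least 10 kb wide on the arms 2L, 2R, 3L, 3R and X or on chromosome 4, chosen by the width that the authors' peak list gives. This rule took 328 of the list's 6914 peaks. The study asked how mutation of the methyltransferase Set8 or of H4K20 affects H4K20me1, and it used CUT&RUN, in which an antibody tethers micrococcal nuclease to chromatin and the released DNA fragments are sequenced. Its peak list sets Oregon-R discs treated with H4K20me1 antibody (n = 3 libraries) against Oregon-R discs that received no primary antibody (n = 3). Both groups are wild type, female, at the wandering stage of instar 3, were raised at 25 °C, and each library pooled 20 discs. The mutant and transgenic groups (21 of the 27 libraries) were not analysed here. Since the list holds positions and widths alone, the depth, strength and replicate spread of each domain are unknown, and no difference below was tested.

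Set8 places the first methyl group on H4K20, and Hmt4-20 converts much of it to the di- and trimethylated forms. In animals, H4K20me1 is commonly found along the bodies of genes. The mark is read by MBT-domain proteins such as L(3)mbt and has been tied to chromosome condensation, genome stability and transcription.

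Domains made up 4.75% of the 6912 peaks on these chromosomes (95% CI 4.27 to 5.27) and held 5.34 Mb of the 17.5 Mb covered, or 30.5%. Most were close to the threshold. The median width was 13.5 kb, with quartiles of 11.3 and 18.3 kb. There were 126 domains of at least 15 kb, 65 of at least 20 kb, 19 of at least 30 kb and 3 of at least 50 kb. The narrowest members, of exactly 10000 bp, lay in the receptor phosphatase gene Lar, the cell surface gene sas and the receptor gene N (Notch). The first peaks left out, each 9950 bp wide, lay over Kr-h1, ab and fra. No break in the widths separated members from other peaks, as 54 peaks measured 10 to under 11 kb and 91 measured 9 to under 10 kb. Membership of domains near 10 kb rests on the threshold alone.

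**Figure D1:**
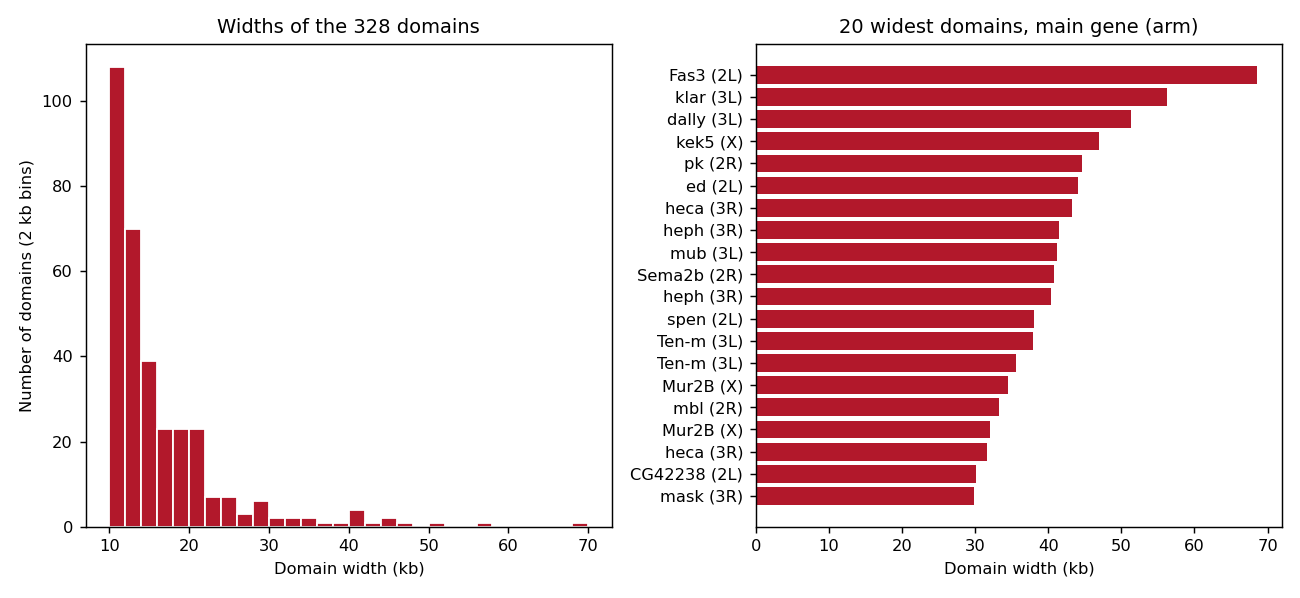
Left, number of domains by width in kb (2 kb bins); right, width in kb of the 20 widest domains, labelled with their main gene and chromosome arm. Most of the 328 domains lie between 10 and 20 kb, and the widest, over Fas3, reaches 68.6 kb.

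The 3 broadest domains lay over Fas3, klar and dally. For each domain the main gene was defined as the protein-coding gene with the most base pairs in it. The domain over Fas3, a homophilic adhesion protein of septate junctions, ran from 18320151 to 18388750 on 2L. It began 49 bp inside one end of the gene (18320102 to 18393441) and stopped 4691 bp short of the other. The klar domain, over a gene of nuclear positioning, was 56.3 kb wide (3L, 433151 to 489450). It started 932 bp outside the gene and stopped 51164 bp before its far end. Over dally, which encodes a glypican that binds Wingless and Dpp, the wider of 2 domains was 51.3 kb (3L, 8840401 to 8891650) and passed the gene end by 458 bp. The kek5 domain of 47.0 kb (X, 19390251 to 19437250) touched neither end of this gene for a leucine-rich-repeat transmembrane protein, lying 37070 and 34664 bp from them. At pk, a core planar polarity gene, 44.6 kb were marked from 898 bp inside one end (2R, 7151601 to 7196200). These examples differ in how far they fill the gene: Fas3 was covered to 93.5% by its domain, dally to 79.8%, pk to 61.4%, klar to 51.97% and kek5 to 39.6%.

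The other main genes among the 20 widest domains were ed, heca, heph, mub, Sema2b, spen, Ten-m, Mur2B, mbl, CG42238 and mask. The immunoglobulin adhesion gene ed carried 44.1 kb in its widest domain and the imaginal-cell gene heca 43.3 kb. Those of heph (polypyrimidine tract-binding protein) measured 41.5 and 40.4 kb, and that of the KH-domain gene mub 41.2 kb. Sema2b, a secreted semaphorin, had 40.8 kb, and spen, which encodes a large RNA-binding corepressor, 38.1 kb. The 2 domains assigned to Mur2B in this set (34.5 and 32.1 kb) lie largely in br, the ecdysone-response transcription factor gene nested inside Mur2B. A choice of main gene by base pairs alone thus favours the longer gene. Ambiguity of this kind was uncommon: in 5 of 328 domains at least 2 protein-coding genes each spanned 50% of the domain or more.

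Some long genes held several domains in series. Among the 602 protein-coding genes that a domain touched, 569 had 1 domain, 23 had 2, 8 had 3, and Ten-m and kek5 had 4. In Ten-m, which encodes a teneurin, the domains were 37900, 16000, 28900 and 35650 bp wide in map order, separated by gaps of 1700, 1350 and 1450 bp, and covered 95.7% of its 115 kb. Those of kek5 were 11.4, 16.2, 47.0 and 12.0 kb wide, with gaps of 1100, 1700 and 7950 bp, and covered 72.9%. The genes with 3 were ed, Mur2B, br, CG43759, the protocadherin gene ds, the Frizzled receptor gene fz, the syndecan gene Sdc and SKIP. Coverage by domains ranged in these from 91.0% of ed and 80.6% of br to 21.3% of SKIP, a 162 kb gene. Genes with 2 included the receptor gene Egfr, the Wingless antagonist nkd, the chromodomain remodeller kis, the nuclear receptor gene Eip75B, the homeobox gene hth and Tet. The pk relative esn also had 2, of 15.8 and 12.6 kb, separated by 1500 bp.

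The gaps in these series were short, which bears on what width means here. Of 322 pairs of neighbouring domains, 41 shared a main gene, with a median gap of 4800 bp (quartiles 1550 and 9100 bp). Only 19 neighbouring pairs lay within 2 kb of each other, and 17 of them shared a main gene. Counting peaks of every width, the next peak lay within 1500 bp of 30.99% of domain ends (95% CI 27.6 to 34.6) and within 5000 bp of 66.6% (95% CI 62.9 to 70.1). The smallest gap was 1050 bp. When peaks at most 1500 bp apart were joined, 516 stretches reached 10 kb, and 649 did so when the limit was 2000 bp, so the number of domains depends on how the authors joined signal into peaks.

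**Figure D2:**
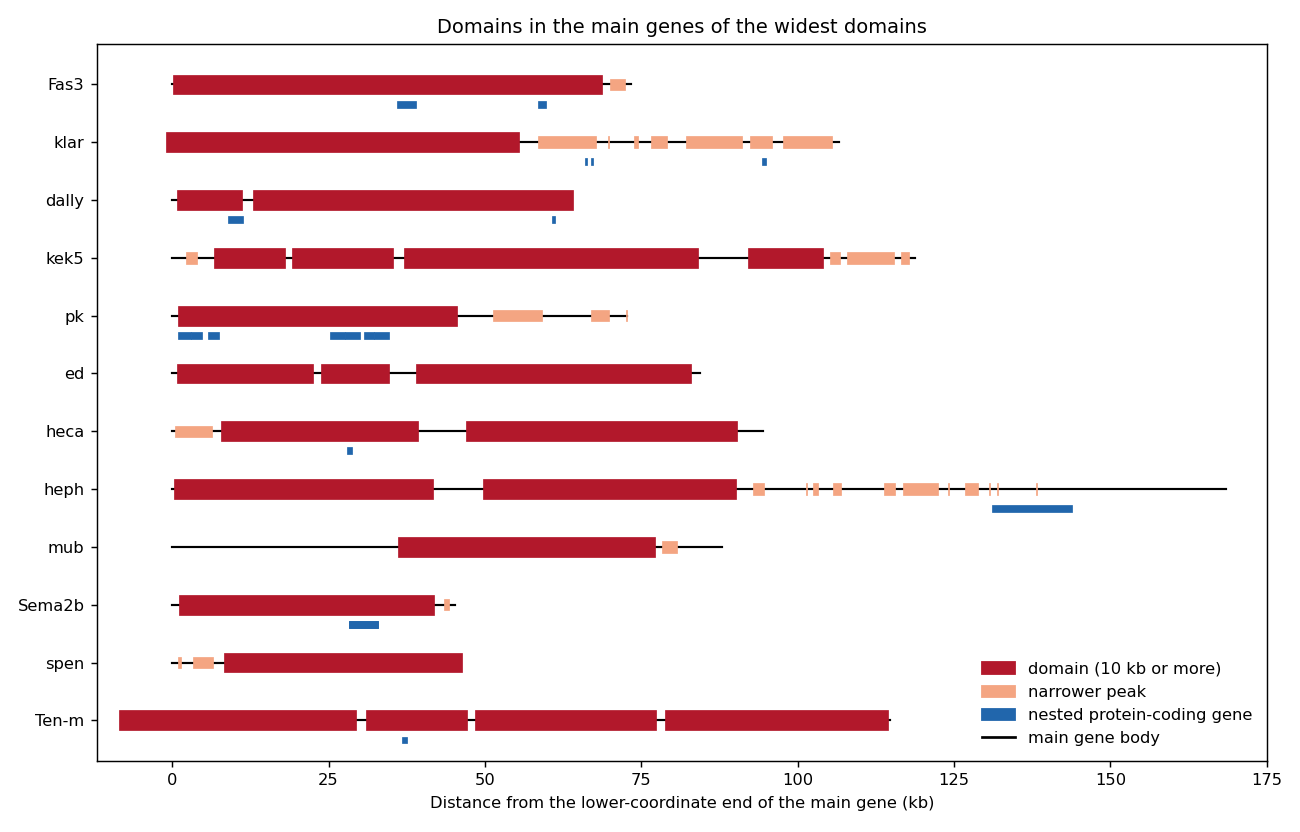
Main genes of the widest domains drawn to scale as black lines, in kb from their lower-coordinate end; dark red boxes are domains, light boxes narrower peaks, and blue boxes below the line nested protein-coding genes. Fas3 and Sema2b are filled almost end to end by 1 domain, Ten-m by 4, while domains of heph and mub cover 48.6% and 46.8% of the gene.

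Domains lay within genes to 98.7% of their length when protein-coding genes were counted and to 99.2% with all annotated genes. Protein-coding gene bodies take up 67.3% of these chromosomes. Peaks of 3 to under 10 kb (n = 1457) lay in protein-coding genes to 97.4% of their length and peaks under 3 kb (n = 5127) to 97.1%. Exactly 1 protein-coding gene was overlapped by 170 domains (51.8%, 95% CI 46.4 to 57.2), by 55.1% of the peaks of 3 to under 10 kb (95% CI 52.5 to 57.7) and by 80.8% of those under 3 kb (95% CI 79.7 to 81.9). At least 3 genes were overlapped by 26.5% of domains (95% CI 22.0 to 31.6), against 14.9% (95% CI 13.2 to 16.8) and 1.46% (95% CI 1.17 to 1.83). A wider region meets more genes by its size, and 12 of the 602 genes share both ends with another gene.

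Several kinds of domain stood behind these counts. In 179 domains (54.6%, 95% CI 49.2 to 59.9) both ends lay inside the main gene. Another 120 (36.6%) passed 1 end of it, and 28 (8.54%) passed both. The last domain overlapped no protein-coding gene and is described with the microRNAs. Single-gene domains had main genes with a median length of 40.5 kb, whereas the main genes of domains over 3 or more genes had a median of 11.0 kb. The domains themselves were alike in width, with medians of 13.3 and 12.9 kb.

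Domains over several genes took in neighbouring genes, genes nested in the main gene, or both. The most genes, 8 each, lay under the pk domain and under a 15.3 kb domain on 2R (17564751 to 17580000). This second domain, named here for Dcr-2, ran over CG14480, CG46428, the nucleostemin-family gene Ns2, the signalling scaffold gene POSH, UQCR-6.4, CG42239, the small GTPase gene Rab4 and Dcr-2 itself, the Dicer of the siRNA pathway. It covered 5 of these completely, Dcr-2 to 76.7%, and CG14480 and CG46428, which share both ends, to 72.8%. A 20.1 kb domain on 3L (15962051 to 15982150) covered 94.4% of brm, the ATPase of the SWI/SNF remodelling complex, with 4 CG-numbered genes inside brm, as well as CG10516 and 82.7% of the splicing helicase gene Brr2. The 3 quaking-related genes qkr58E-1, qkr58E-2 and qkr58E-3 were covered completely by a 12.3 kb domain on 2R, together with VepD and PolE4. That domain ended in mRpS29, covered to 91.3%, and CG6044, covered to 13.5%. On 3R, an 11.0 kb domain covered 70.4% of 14-3-3epsilon, all of CG12320, CG18598, Ada2a and Polr2D, and 17.3% of Tgs1 and moi. In all, 18 domains overlapped 5 or more protein-coding genes.

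Domain ends lay near gene ends more often than domain interiors did, yet most ends were not at a gene end. Of the 656 domain ends, 165 (25.2%, 95% CI 22.0 to 28.6) were within 1 kb of an end of the main gene and 251 (38.3%, 95% CI 34.6 to 42.0) within 1 kb of an end of any protein-coding gene. For comparison, 13.6% of the bases inside domains and 24.6% of all bases on these chromosomes lie that close to a protein-coding gene end. For peaks of 3 to under 10 kb the shares of ends were 32.4% (95% CI 30.7 to 34.1) for the main gene and 45.1% (95% CI 43.3 to 46.9) for any gene. For peaks under 3 kb they were 25.0% (95% CI 24.1 to 25.8) and 38.5% (95% CI 37.6 to 39.5). Domain ends thus matched at about the rate of peaks under 3 kb and below that of peaks of 3 to under 10 kb. This comparison is not matched for gene length. Main genes had median lengths of 24.4 kb for domains, 9.89 kb for peaks of 3 to under 10 kb and 13.1 kb for peaks under 3 kb. A shorter gene has more of its body near an end. Of all bases in the domains' main genes, 5.81% lie within 1 kb of that gene's own ends. This share counts bases inside the gene only. Of the 478 domain ends inside their main gene, 24.3% lay that close to its ends. The intervals cover counting error only and treat neighbouring ends as independent.

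The ends that matched sat mostly just inside the gene. Of 654 ends with a main gene, 116 (17.7%) lay 0 to 1 kb inside its end, 59 (9.02%) 1 to 2 kb inside, and 49 (7.49%) up to 1 kb past it. All told, 478 ends lay inside the main gene, at a median of 6816 bp from its end, and 149 ends of either kind were more than 20 kb away. The 176 ends past the main gene overshot it by a median of 2463 bp (quartiles 825 and 4843 bp), and 140 of them (79.5%, 95% CI 73.0 to 84.8) stopped inside another protein-coding gene. Without strand in the gene table, starts and ends of transcription cannot be told apart.

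Both ends matched within 1 kb in 21 domains, 1 end in 123 and neither in 184. The closest match was Unr, an RNA-binding protein gene of 10060 bp on 3L, whose domain passed its ends by 221 and 19 bp. The domain over dom, the ATPase of a SWR1-type remodelling complex, began 79 bp outside the gene and stopped 297 bp inside it (2R, 21323351 to 21341550). Ncoa6 and ovo followed, and then ft, an atypical cadherin of the Hippo and planar polarity pathways, with its domain 247 and 496 bp inside the ends. Longer members of this set included bon, Bruce and Tpr2, and each of the 21 main genes was shorter than 30 kb. Ends at both gene ends were seen in 15 of 101 domains with a main gene under 15 kb, 6 of 79 at 15 to 30 kb, 0 of 72 at 30 to 60 kb and 0 of 75 above. Median coverage of the main gene by its domain was 94.1%, 66.3%, 34.3% and 17.0% in these classes. Median domain width changed little (11.9, 14.6, 14.7 and 16 kb). A match at both ends needs a domain about as wide as its gene, and only 19 of the 328 domains reached 30 kb. The lack of such matches in longer genes, and their lower coverage, are thus tied to domain width. Farthest from both ends of its main gene was a domain of Ten-a, the other teneurin gene, which lay 161003 and 112314 bp from its ends. The next were in Mur2B, heph, mbl (the splicing regulator muscleblind) and mtgo.

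**Figure D3:**
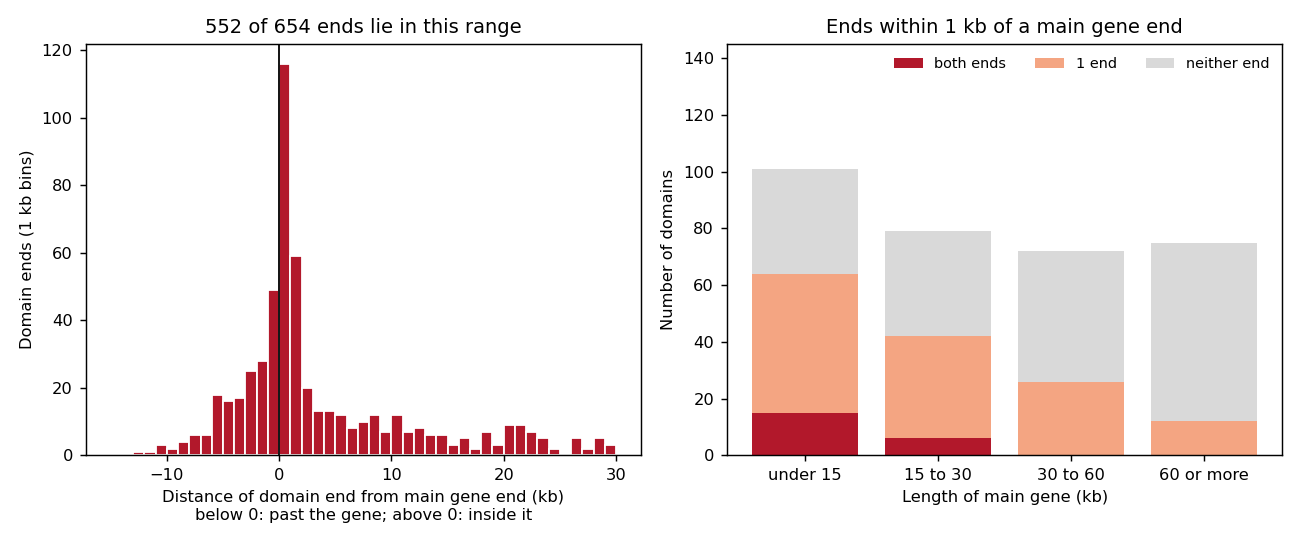
Left, signed distance in kb of domain ends from the nearest-side end of the main gene (1 kb bins; below 0 the domain passes the gene end, above 0 it stops inside); right, number of domains by main gene length, stacked by how many ends lie within 1 kb of a main gene end. The tallest bin is the first kb inside the gene, with 116 ends, and matches at both ends occur in 21 domains, all with main genes under 30 kb.

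Genes nested inside the main gene were covered in part of the cases. The main genes contain 133 protein-coding genes that lie wholly within them. Domains overlapped 57 of these (42.9%, 95% CI 34.8 to 51.4) and covered 50 completely. Such genes were found in 38 domains (11.6%, 95% CI 8.56 to 15.5). Of the 76 nested genes outside the domains, 41 carried no peak of any width. The overlapped genes were short, with a median length of 1528 bp, apart from br (89.7 kb), Su(Tpl) (20.3 kb), Pfrx (13.8 kb), dlt and Kdm3. Domains covered 48.6% of all main gene sequence and 26.3% of nested gene sequence when br was left out (35.5% with it).

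The most nested genes lay under pk, where the serpin genes Spn43Ab, Spn43Ad and nec, CG11060, CG33140, CG30385 and CG30384 were all covered from end to end. The brm domain held CG17026, CG17027, CG17028 and CG17029. Egfr had 3 nested genes in its domains (CG30286, CG30287 and CG33226), as had RhoGEF2 (CG43327, CG43328 and CG43371), which activates Rho1, and the ubiquitin ligase gene Smurf (ND-51L1, CG43920 and CG42649). Fas3 contained Acp36DE, known for a seminal fluid protein, and CG34171. Sema2b contained Menl-1 and Menl-2, which share both ends, and dally contained CG43169 and CG32026. Whether signal over a nested gene comes from that gene or from its host cannot be told apart in this list.

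Non-coding genes inside domains included microRNA genes, among them bantam, and many small nucleolar RNA genes. MicroRNA genes had a domain in 16 of 260 cases (6.15%), long non-coding RNA genes in 38 of 1959 (1.94%), antisense RNA genes in 26 of 503 (5.17%), tRNA genes in 8 of 290 (2.76%) and snoRNA genes in 39 of 269 (14.5%). Protein-coding genes had one in 602 of 13922 cases (4.32%).

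One domain of 15.3 kb on 3L (628951 to 644250) overlapped no protein-coding gene of the table. It covered 96.7% of the non-coding gene CR43334 (628435 to 643900) and the bantam microRNA gene mir-ban (642208 to 642288) close to the far end of that transcript. The domain began 516 bp inside CR43334 and passed its other end by 350 bp. The bantam microRNA promotes growth of imaginal discs and represses the cell death gene hid. A 12.2 kb domain also lay within hid itself (3L, 18171751 to 18183900) and covered 67.9% of it.

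Clustered microRNAs shared domains. The genes mir-9c, mir-306, mir-79 and mir-9b lay in an 11.1 kb domain (2L, 16691251 to 16702350) that covered 43.7% of the checkpoint kinase gene grp and ended 2424 bp past it. In E2f1, the cell cycle transcription factor, mir-998 and mir-11 lay in an 11.95 kb domain that began 197 bp inside the gene (3R, 21620501 to 21632450). A 10.5 kb domain over Fmr1, the fly homologue of the fragile X gene, reached 2919 bp beyond the gene and took in mir-34 and mir-277 (3R, 10098501 to 10109000). The other 8 microRNA genes lay singly in domains of kis, bun, CG8671, CG8468, msk, CG8176 and Sxl, the switch gene of sex determination, and at bantam.

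The 39 snoRNA genes fell in 13 domains and were covered completely. Most came from 3 host regions, so the genes are not independent cases: 15 lay in the dom domain, 8 in a 20.2 kb domain around CG2926 on 3R and 5 in the Usp47 domain on 3L. The dom set guides modification of ribosomal RNA and includes lettered copies of the same snoRNA, such as snoRNA:Psi28S-3316a and snoRNA:Psi28S-3316b. Of the 8 tRNA genes, 3 lay in the domain of hts, the adducin gene, and 2 in a domain of ec. Of lncRNA:roX1, a dosage compensation RNA, 7.70% lay under the end of an ec domain.

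Domains were spread over all arms at similar density. There were 2.22 per Mb on 2L (n = 52), 2.81 on 2R (n = 71), 2.49 on 3L (n = 70), 2.49 on 3R (n = 80) and 2.21 on X (n = 52). Chromosome 4 had 3, over Gyf, gw and the calcium pump gene PMCA, or 2.36 per Mb. Domains held between 27.7% (X) and 35.2% (3L) of the covered sequence of the large arms and 17.4% on chromosome 4. The widest on each arm lay over Fas3 (2L), pk (2R), klar (3L), heca (3R) and kek5 (X), at 68.6, 44.6, 56.3, 43.3 and 47.0 kb, and over Gyf on chromosome 4, at 11.2 kb. Median spacing between neighbours was 170 kb (quartiles 44.8 and 460 kb).

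Along the 5 large arms, domains were more frequent towards the telomere. From telomere to centromere, the 5 equal parts of each arm held 94, 82, 65, 57 and 27 domains (28.9%, 25.2%, 20.0%, 17.5% and 8.31%). The narrower peaks were spread as 22.2%, 24.2%, 22.96%, 21.3% and 9.25%, and protein-coding genes of 10 kb or more as 22.6%, 22.4%, 21.7%, 22.9% and 10.3%. The part next to the centromere differed between arms. It held 12 of 52 domains on X (23.1%, against 14.0% of long genes), 8 of 52 on 2L (15.4%, against 16.4%), 6 of 80 on 3R (7.50%, against 10.4%), 1 of 70 on 3L (1.43%, against 6.19%) and 0 of 71 on 2R (5.32% of long genes). The longest stretch between domains, 5.59 Mb on 3L (22407451 to 27998650), lay between the last Ten-m domain and a domain in l(3)80Fj. It is at the centromeric end of the arm, and how well reads can be placed there was not tested. Within the arm of X, 3.08 Mb were free of domains (12733951 to 15814050), bounded by Smr and sd, and on 2L 2.90 Mb (13593551 to 16492250), bounded by kuz and Tpr2. Outermost on 2L, a 13.3 kb domain covered 95.01% of the tumour suppressor gene l(2)gl, next to the telomere (7551 to 20800).

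The share of genes with a domain was higher for longer genes, which also meet a domain more often by their size when 1 bp of overlap counts. Of the 602 genes under a domain, 345 measured less than 10 kb. Their median length, 6.39 kb for all 602, was above the 2.16 kb of all protein-coding genes. Of genes of 10 kb or more, 257 of 1976 had a domain (13.0%). Domains filled 50% or more of the body of 445 of all 13922 protein-coding genes (3.20%). The share with a domain was 2.26% under 2 kb, 3.29% at 2 to 5 kb, 4.58% at 5 to 10 kb, 10.6% at 10 to 20 kb, 13.1% at 20 to 40 kb, 14.9% at 40 to 80 kb (95% CI 11.5 to 19.2) and 25.6% above (95% CI 18.9 to 33.6, 34 of 133 genes). The share with a peak of any width was 55.2%, 50.5%, 51.2% and 57.9% in the last 4 classes. Long genes with a domain were covered by peaks of all widths to a median of 77.7%, and those with narrower peaks alone to 22.8%. This contrast follows at least in part from the rule, since the first group was chosen by having a wide peak. Of 1719 long genes without a domain, 921 had no peak and 798 had narrower ones. The longest without one were Myo81F, Pzl, lovit, CG17684 and kirre. CG17684 had no peak, and the others were covered to between 0.0254% and 1.69%. All but kirre lie in the part of their arm next to the centromere. How well reads can be placed there was not tested, so a lack of peaks need not mean a lack of the mark.

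**Figure D4:**
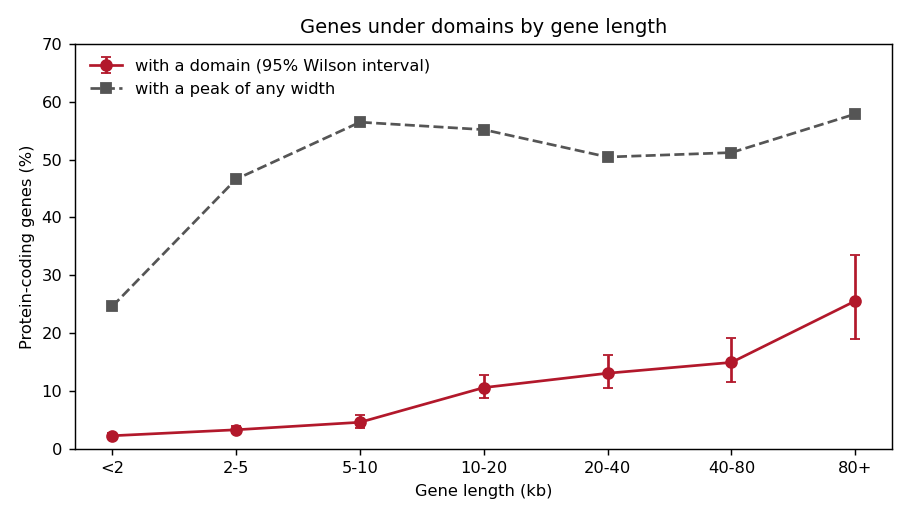
Percent of protein-coding genes with a domain (circles, 95% Wilson intervals) and with a peak of any width (squares) by gene length in kb. The share with a domain is 2.26% under 2 kb and 25.6% at 80 kb or more, whereas the share with any peak stays between 50.5% and 57.9% from 10 kb upward.

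Gene lists were compared by their members of 10 kb or more, against the 13.0% of all such genes. This background is not matched for length: median length of the long members was 40.7 kb for adhesion, 49.6 kb for RNA-binding and 50.7 kb for ecdysone genes, against 19.96 kb for all long genes without a domain, and 14.9% of all genes of 40 to 80 kb had a domain. Planar polarity and Hippo genes stood highest, with a domain in 9 of 14 (64.3%, 95% CI 38.8 to 83.7). They included pk, ds, fz and ft, with 44600, 44250, 42850 and 22650 bp in domains. The apical determinant crb was covered to 90.4%, the kinase gene wts to 62.7% and the transcription factor gene sd to 58.5%. Coverage was 38.9% for ex and 32.7% for the seven-pass cadherin gene stan. Of these genes, ds, ft, stan and crb are also in the adhesion list, fz in the Wingless list and sd among the wing disc factors. The palmitoyltransferase gene app and kibra were the longest without a domain, with 3.38% and 35.6% in narrower peaks.

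The list of adhesion and junction genes had domains in 13 of 55 long members (23.6%, 95% CI 14.4 to 36.3), an interval that includes the 14.9% of genes of 40 to 80 kb. The median covered share of those 13 was 90.3%. Ten-m, kek5, ed and Fas3 led this list. The septate junction gene Lac (90.3%) and l(2)gl were nearly filled, and the ZO-1 gene pyd was covered to 25.5%. The short beta-catenin gene arm, below the length limit, was covered completely. By contrast kirre (394 kb) and Con (142 kb) had none. Guidance genes had a domain in 7 of 23 (30.4%, 95% CI 15.6 to 50.9), led by Sema2b (90.1%), Sema5c (92.1%), robo2 (30.8%) and sli (22.99%), whereas Sema1a and Ptp99A lacked one. Lar, covered to 6.88%, is among the 7. The guidance count was 5 of 23 at a threshold of 12 kb, 2 of 23 at 15 kb and 1 of 23 at 20 kb. Those counts were 12.1, 2.93 and 1.26 points above the share of all long genes with a domain at the same thresholds. Among integrin, laminin and matrix genes 3 of 16 had one (18.8%, 95% CI 6.59 to 43.0), namely dally (96.0%), Sdc (41.6%) and pio (99.4%), and dpy and trol did not.

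Cytoskeletal genes carried domains in 15 of 32 cases (46.9%, 95% CI 30.9 to 63.6). At least 50% of the gene was covered in 10 of the 32, while cher (2.56%), Msp300 (9.66%) and Dys (11.5%) were touched over a small part. Of the spectrin genes, alpha-Spec was covered to 100%, beta-Spec to 97.3% and kst, the apical beta-heavy spectrin, to 55.8%. Domains also covered RhoGEF2 (100%), the actin elongation factor gene ena (89.7%), the myosin II heavy chain gene zip (80.5%) and the ERM gene Moe (74.2%). No domain lay in RhoGEF64C or in the spectraplakin gene shot, although 38.5% of shot was in narrower peaks.

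Chromatin genes had a domain in 12 of 25 long cases (48.0%, 95% CI 30.03 to 66.5). They were kis (77.6%), tou (50.4%), dom (98.4%), trx (57.3%), nej, Mi-2, skd, osa, E(bx) (93.4%), brm, Sin3A and Su(var)2-HP2 (94.6%). Several encode ATPases or other subunits of nucleosome remodelling complexes. At a threshold of 20 kb the count was 3 of 25, which was 8.91 points above the share of all long genes with a domain at that threshold. The longest without one were jing and Nipped-A, with 45.2% and 8.76% in narrower peaks. RNA-binding protein genes had one in 10 of 26 (38.5%, 95% CI 22.4 to 57.5), led by heph, mbl, mub and spen, and including msi, Syp, Sxl (73.8%) and how, but not bru3 or pum. With at least 50% of the gene covered, the count was 3 of 26, which was 3.54 points above the share of all long genes covered to that extent. Long cell cycle genes had a domain in 3 of 7 (42.9%, 95% CI 15.8 to 74.95), CycG (81.2%), E2f1 (29.5%) and grp, and shorter ago was covered completely. Both CycE and Myc were without one, Myc with 59.9% in narrower peaks. The cell cycle count was 1 of 7 at a threshold of 12 kb and 0 of 7 at 20 kb. Those counts were 4.67 and -3.09 points from the share of all long genes at the same thresholds.

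Signalling lists ranged from 21.7% to 50%. Wingless, Dpp and Hedgehog genes had domains in 8 of 27 (29.6%, 95% CI 15.9 to 48.5), led by dally, fz, nkd (89.0%) and fz2 (22.1%), with the Dpp receptor gene tkv and the kinase gene sgg among them, and without ttv and sfl. Of the Notch list, 4 of 8 had one (50%, 95% CI 21.5 to 78.5): the protease gene kuz (23.6%), numb (51.5%), fng (47.8%) and N (26.8%). The domain of N is exactly 10000 bp wide, and the count was 2 of 8 at a threshold of 12 kb, 1 of 8 at 15 kb, and 1 of 8 when 50% of the gene had to be covered. Those counts were 15.4, 6.73 and 4.50 points above the share of all long genes at the same settings. The coactivator gene mam and Delta had narrower peaks over 11.9% and 58.3%. For EGF receptor, FGF, insulin and TOR genes the count was 5 of 23 (21.7%, 95% CI 9.66 to 41.9), including Egfr (59.8%), RasGAP1 (87.7%), InR (21.6%) and cic (20.6%), with no peak in Pvf3 or ths. Ecdysone and nuclear receptor genes had one in 4 of 17 (23.5%, 95% CI 9.56 to 47.3), namely br (80.6%), Eip75B (22.2%), EcR (22.8%) and the coactivator gene tai (17.0%). The intervals of these 2 lists, and of the integrin, laminin and matrix list, include the background.

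Wing disc transcription factor genes had a domain in 3 of 37 cases (8.11%, 95% CI 2.80 to 21.3), with an interval that includes the background. Those were hth (17.6%), sd and the dorsal selector ap (52.5%), whereas bi and ct had none, ct no peak at all. However, 23 of the 37 had a peak of some width (62.2%, against 53.4% of all long genes). Hox genes and other Polycomb targets had no domain in 25 long members. A count of 0 allows a share of up to 12.0% by the limit of 3 counts and up to 13.3% by the Wilson interval, which includes the background. A narrower peak lay in 5 of the 25. Antp (6.02% in peaks) and Ubx (no peak) were the longest.

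Marker lists of other cell types that can accompany a dissected disc were read the same way, and their part in the results was not tested. Neuron markers had a domain in 1 of 56 long genes (1.79%, 95% CI 0.316 to 9.45), the dystrophin gene Dys, which the cytoskeletal list holds too; there was no peak in dnc or dpr6. None of the 7 long hemocyte or fat body markers had a domain, which allows up to 42.9%. The shorter crq was covered to 86.9% by the domain of its neighbour ex, which it overlaps, and ush and Pxn had none. Muscle and myoblast markers had a domain in 4 of 20 (20.0%, 95% CI 8.07 to 41.6), mbl, how, rols and Actn, of which mbl and how are in the RNA-binding list as well; kirre and sls had none. Tracheal markers had one in 1 of 8 (12.5%, 95% CI 2.24 to 47.1), pio, and not in dpy or bnl. Of the 286 distinct main genes, 96 were in one of the 18 lists, so most main genes are in none of them.

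**Figure D5:**
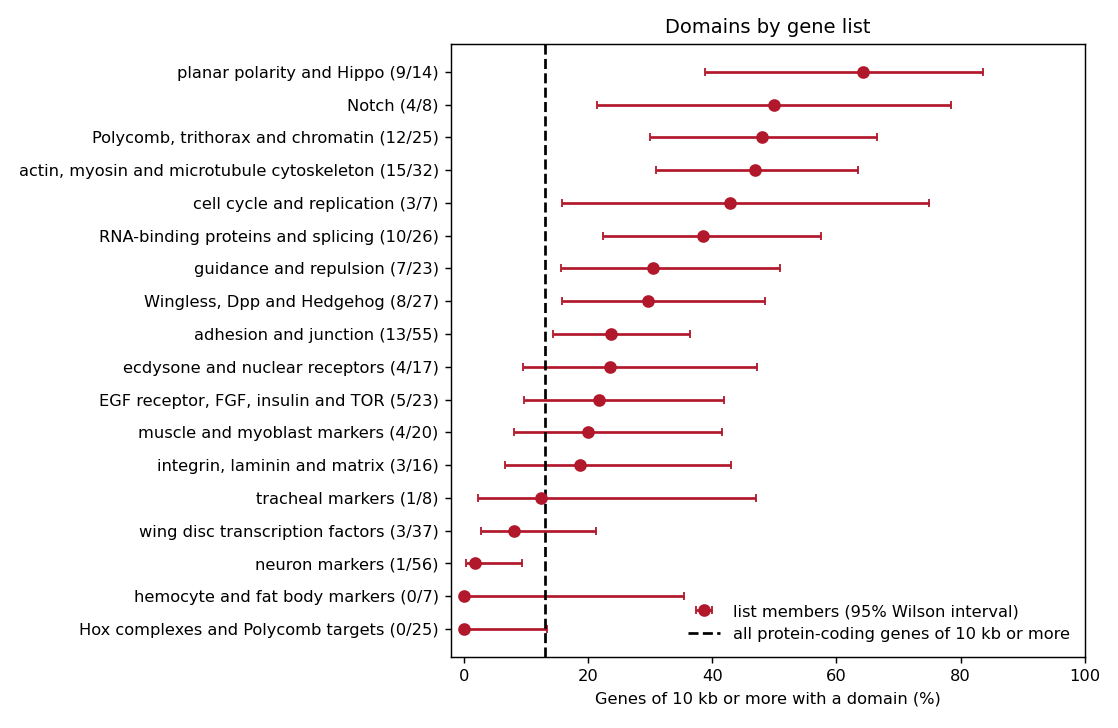
Percent of list members of 10 kb or more that have a domain (circles, 95% Wilson intervals; counts in brackets) for the 18 lists, with the 13.0% of all protein-coding genes of that length as a dashed line. Planar polarity and Hippo genes lie highest at 64.3%, and neuron (1.79%), hemocyte or fat body and Hox or Polycomb target lists (the last 2 at 0) lowest.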

How the data were processed

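Peaks were taken from the authors' deposited list for Oregon-R discs, which gives chromosome, start, end and width in bp, with no score or value per library. Every width equalled end minus start plus 1 and was a multiple of 50 bp. Coordinates are on dm6; per the submitters' processing notes, Bowtie2, SAMtools, bedtools, deepTools and edgeR were used, with neither version nor role named. The sources used here give no peak caller, threshold, rule for joining peaks or treatment of replicates. Gene positions, symbols and biotypes came from NCBI RefSeq's Release 6 table (dm6), without strand, exons or sequence. Promoter motifs and protein lengths had been planned and were not run for that reason. Overlap meant at least 1 bp. Each arm was taken to extend to its outermost gene or peak, and 2 peaks on Y were left out. Intervals are 95% Wilson intervals over regions or genes, cover counting error only and say nothing of the spread between libraries. For a count of 0 the limit is 3 counts of the total. The code that places domains on genes was checked on simulated data. Python 3.11.15, pandas 2.3.3, numpy 2.4.6 and scipy 1.17.1 were used.

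Members, gene lists and settings were chosen with earlier results of these data known. The 18 lists were written from known gene functions. In all, 725 of their names were found and 5 were not, and 40 genes are in more than 1 list. Named genes follow a rule: main genes of the 20 widest domains, genes with 2 or more domains, the 5 domains over most genes, the 4 list members with most bp in domains and the 2 longest without, the widest domain of each arm, threshold neighbours, best and worst end matches, nested genes, and short RNA genes. Further genes were named after their values were seen.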

Additional observations from a re-analysis of the deposited data

How the results depend on the processing

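No paired analysis was possible because the single peak list holds no value per library, so no replicate could be left out either. The share of domain sequence in protein-coding genes, 98.7%, ranged from 97.6% to 99.2% over the 12 alternatives run. The number of domains, 328, was 500, 220, 126 and 65 at thresholds of 8, 12, 15 and 20 kb. It was 516 and 649 when peaks up to 1500 and 2000 bp apart were joined. Genes under domains, 602, then numbered 900, 403, 238 and 136 at 8, 12, 15 and 20 kb, and 1238 and 1783 after joining. The share of domains over a single gene, 51.8%, was 41.5% at 20 kb, 40.7% and 36.2% after joining, and 65.5% when a gene had to span 10% of the domain. The share with a nested gene, 11.6%, was 15.9% and 24.6% at 15 and 20 kb, and 15.9% and 17.1% after joining. Ends within 1 kb of a main gene end, 25.2%, became 6.86%, 14.0% and 38.4% with tolerances of 250, 500 and 2000 bp, and 38.3% for any gene end. The cause of these shifts was not tested. Joining for gene and nested counts, leaving out arms for some results, another choice of main gene and all list settings were added after the data were seen. Of the 18 lists, 13 kept the sign of their difference from the background in all 6 such settings; the EGF receptor list kept it in 2 and the tracheal list in 1, and the cell cycle, ecdysone and muscle lists in 5 each. The size of the difference moved more: Notch, 36.99 points above the background, was 6.73 above at 15 kb and 4.50 at 50% coverage, RNA-binding genes (25.5) 3.54 at 50% coverage, and at 20 kb chromatin genes (34.99) 8.91 and cytoskeletal genes (33.9) 9.41. The background share itself changes with the setting, so these points are not on one scale. A list with 0 members under a domain lies below 0 by exactly the background share. The hemocyte and fat body list, with 0 of 7, stood at -13.0 points at 10 kb and -5.77 at 15 kb. It stood at -3.09 at 20 kb and -8.00 at 50% coverage.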
